A study of Drosophila melanogaster with 72 samples.

Results

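The features described here are 1531 single transposable element insertions, that is, copies of mobile DNA at fixed places in the reference genome of Drosophila melanogaster. They were chosen by their measured values: of 5416 single insertions that the count table of the Lpp[TS] lines lists among 23932 features, 1531 had a summed count of at least 10 over the 18 libraries. That an insertion was detected is therefore a consequence of the choice and not a result. Just inside the threshold, 61 insertions had a summed count of 10. Just outside it, 81 had a summed count of 9. A further 1888 insertions had no count at all, and 1997 had 1 to 9 counts. The other 2 count tables of the series list no such insertion, so only the Lpp[TS] lines are described.

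Whole female flies, 15 d old, were sampled from 3 lines. These are Lpp[TS]>Lsp2 and Lpp[TS]>Rheb as the driven lines, with Lpp[TS]>w1118 as their control. In fly notation the name after the sign is what the driver, here Lpp[TS], switches on, and w1118 is a common laboratory strain with no such target gene. All 3 lines carry Lpp[TS], so no comparison here is against flies without it, and the labels do not say in which cells it is active. Lsp2 encodes a larval serum storage protein and Rheb a small GTPase that activates the growth kinase complex mTORC1. For each line, poly(A) RNA was sequenced from total RNA, from a monosome fraction (1 ribosome on a transcript) and from a polysome fraction (several ribosomes), collected from a sucrose gradient, with 2 libraries each. Levels are counts per 1000000 counts of a library (CPM), with no correction for length. They compare an insertion between libraries and do not rank insertions by abundance.

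Library totals were 24006931 to 31312078 counts in polysome, 12317646 to 21253221 counts in monosome and 20724208 to 33538882 counts in total RNA libraries, so a count of 3 corresponded to 0.0894 to 0.244 CPM. Total RNA held 7686 and 6609 CPM of Lsp2 in Lpp[TS]>Lsp2 and 2268 and 2578 CPM in Lpp[TS]>Rheb, against 4.49 and 5.23 CPM in Lpp[TS]>w1118. Rheb was at 131 and 102 CPM in Lpp[TS]>Lsp2 and 879 and 967 CPM in Lpp[TS]>Rheb, against 126 and 125 CPM in Lpp[TS]>w1118. The summed CPM of 12 measured follicle cell and eggshell markers (of 13 listed) in total RNA was 61.5 and 60.2 in Lpp[TS]>Lsp2 and 104 and 102 in Lpp[TS]>Rheb, against 167 and 142 in Lpp[TS]>w1118. Single markers fell by more than the sum: the median log2 change of 11 tested was -3.56 in Lpp[TS]>Lsp2 and -3.85 in Lpp[TS]>Rheb. Over all features the medians were 0.08 and -0.04. Of the 11, 0 were called in Lpp[TS]>Lsp2 (0.0166% of all features) and 5, all lower, in Lpp[TS]>Rheb (1.53%). For 6 measured testis and male accessory gland markers (of 7 listed) the sum was 43.1 and 0.0446 CPM in Lpp[TS]>Lsp2 and 0.149 and 0.162 CPM in Lpp[TS]>Rheb, against 7.14 and 15.7 CPM in Lpp[TS]>w1118. Since these are whole flies, more cells of a type and more RNA per cell cannot be told apart, and the part of such markers in the values of the insertions was not tested. The replicates of Lpp[TS]>Lsp2 were the least alike in total RNA (Spearman correlation over features 0.943, against 0.990 and 0.994 in the other lines).

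Retrotransposons move through an RNA copy that also serves as the mRNA for their proteins. Those with long terminal repeats (LTR) resemble retroviruses and encode Gag and Pol proteins, while the non-LTR kind, such as Doc, jockey and the telomeric HeT-A, copies itself directly at the new site. DNA transposons move by a transposase, and INE-1 is an old, short, mostly immobile element found in many introns. In the fly germline and in ovarian follicle cells, small RNAs bound to Piwi proteins (piRNAs) silence these elements, and in other tissues small interfering RNAs do so. An insertion inside an intron is also copied as a passive piece of its host gene's primary transcript.

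All 1531 insertions could be named from the annotation and fell into 121 element families. LTR retrotransposons gave 606 insertions, non-LTR retrotransposons 398, INE-1 277, DNA transposons 219 and foldback elements 27, and 4 were left unclassed. By position, 758 lay in an intron, 639 between genes and 134 over an exon. In introns, 433 had the orientation of the host gene and 303 the opposite one. The median length was 1790 bp, against 219 bp for the listed insertions below the threshold; the choice by raw counts favours long insertions, so this describes the choice and is no result. LTR retrotransposons held 56.1% of the members' 205555 counts, non-LTR retrotransposons 25.9%, DNA transposons 8.37% and INE-1 8.02%. Depth was thin for most, with a median summed count of 36 over 18 libraries. Only 370 insertions reached 100 counts and 32 reached 1000.

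The counts were concentrated. The 10 most counted insertions held 22.9% of all counts of the members, and the first of them, accord{}818 (FBti0018951), held 7.39%. This LTR retrotransposon of 5225 bp lies in an intron of CG17574 (2R:12862330-12867554, + strand, BDGP6), opposite to the gene. It is followed by roo{}339 in an intron of dpr2, with a summed count of 7236, and by Doc{}CHKov1[Doc1420] with 5999. The Doc insertion is a 4516 bp Doc element over an exon of CHKov1 (3R:25324412-25328927, - strand). The other 7 are springer{}1464 in Sox100B (3R:31074284-31081826, - strand), mdg1{}831 in hbs, Rt1b{}990 in bru3, copia{}399 in CadN2, mdg1{}29 in kirre, rooA{}1506 in PMCA and the intergenic Doc{}1407, with summed counts of 4110 to 2166. Over families, copia held most counts (8.96%, 28 insertions), ahead of INE-1 (8.02%, 277), Doc (7.74%, 55), accord (7.39%, a single insertion), roo (7.30%, 106), mdg1 (5.66%, 21), jockey (4.21%, 59) and springer (3.95%, 7). Copies of a family are similar in sequence, and the sources used here do not give how reads that match several copies, or the opposite strand, were assigned, nor how reads were where an insertion overlaps an exon. Values of single copies of a family are therefore uncertain, and family sums are given beside them.

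Insertions took a small part of each library, and a larger part of the monosome libraries. Their summed level was 369 to 552 CPM (median 475) in polysome and 471 to 992 CPM (median 580.3) in monosome libraries, against 321 to 483 CPM (median 414) in total RNA. Monosome libraries stood above the total RNA of the same line and replicate number in 6 of 6 cases, by 1.22 to 2.33 times, and the mean difference was 1.53-fold. An exact permutation test within lines (two-sided) gave p = 0.00926, which is the smallest that this design allows. The polysome share was on average 1.16-fold that of total RNA (exact permutation p = 0.102, two-sided), with ratios of 0.869 to 1.41. Without copia the monosome difference was 1.37-fold, with the same p. By line, total RNA held 429 ± 75.9 CPM in Lpp[TS]>Lsp2 and 430.2 ± 7.42 CPM in Lpp[TS]>Rheb, against 362 ± 57.4 CPM in Lpp[TS]>w1118 (SD, n = 2 each). With 2 libraries against 2, an exact permutation test cannot go below p = 0.333, and it gave 0.667 for Lpp[TS]>Lsp2 and 0.333 for Lpp[TS]>Rheb (two-sided).

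**Figure D1:**
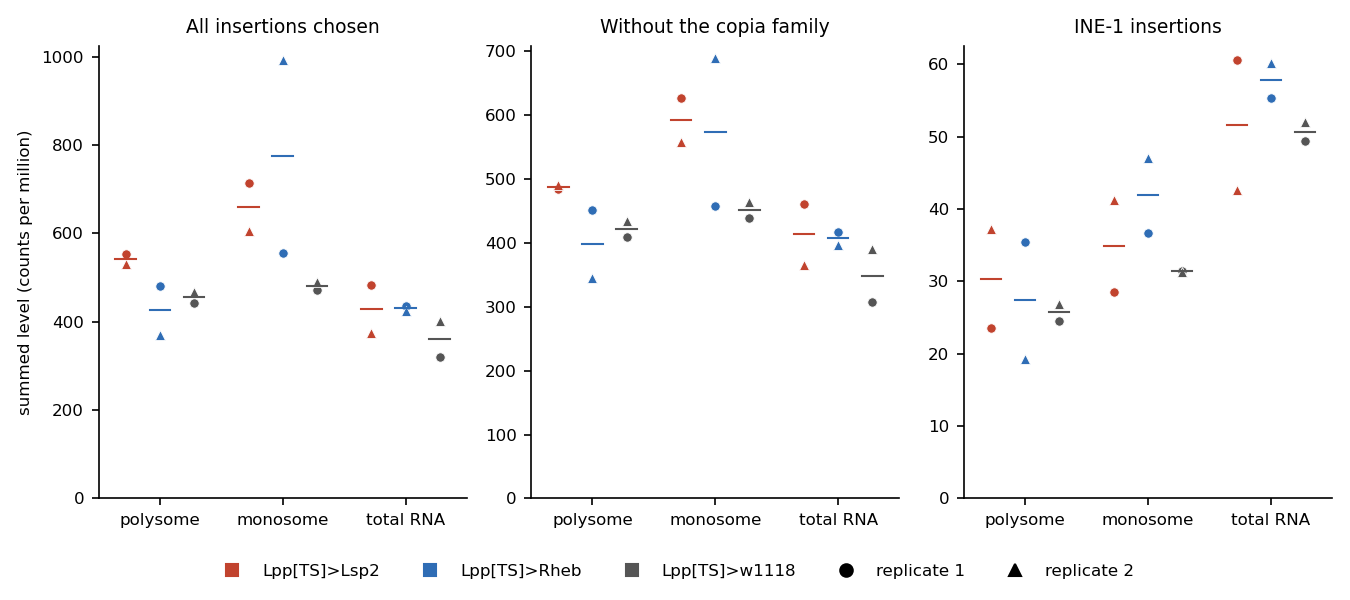
Summed level of insertions (CPM, vertical axis from 0) by fraction for all 1531 insertions, for those outside the copia family, and for INE-1 alone. Colours give the line, symbols the replicate and bars the mean of 2; in the first panel each monosome library is above the total RNA of its line and replicate, with 992 as the highest value (Lpp[TS]>Rheb replicate 2), while INE-1 is highest in total RNA.

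A subset of insertions went against the rest in 2 of the 6 total RNA libraries. In replicate 2 of Lpp[TS]>Rheb and replicate 1 of Lpp[TS]>w1118, 7 insertions had low values: mdg1{}900, mdg1{}831, mdg1{}1678, mdg1{}29, BS{}1233, F{}1358 and Doc{}1407. For mdg1{}831 these 2 libraries gave 2.47 and 1.25 CPM, while the other 16 libraries ranged only from 5.96 to 8.61 CPM (coefficient of variation 9.84%). For BS{}1233, a 152 bp fragment in an intron of Osi24, they gave 1.29 and 0.965 CPM, with 3.17 to 5.20 CPM in the other 16. The polysome and monosome libraries of the same replicates were not low. Among 8673 features at 2 CPM or more in the other 4 total RNA libraries, these 7 were the only ones whose lowest of those 4 values was over 1.3 times the highest of the pair. In the other direction, among features at 2 CPM or more in the pair, 6 had a lowest value in the pair over 1.3 times the highest of the other 4, and 0 of these were members. Only 19 of the 8673 features were members. Both thresholds were set after the values were seen, and no test was made. Each of the 2 libraries belongs to another line, so the named differences between lines in total RNA are given with the values without each of them.

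**Figure D2:**
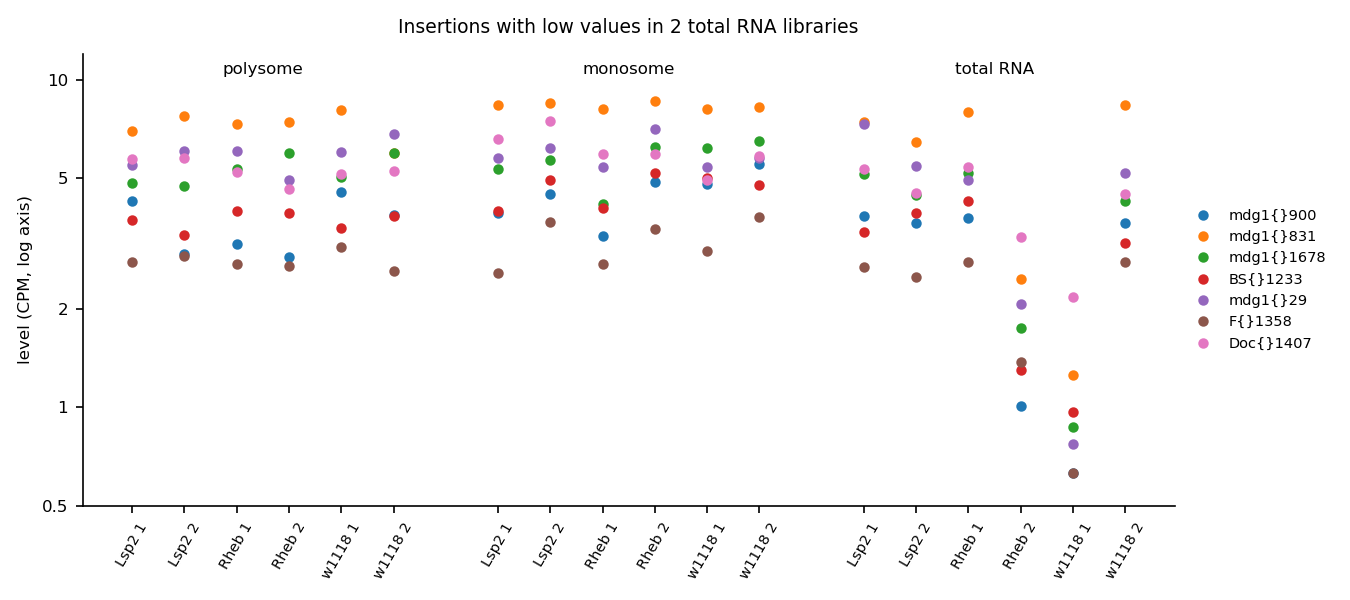
Level (CPM, log axis) of 7 insertions in each of the 18 libraries, grouped by fraction and named by line and replicate. All 7 are lowest in the total RNA of Lpp[TS]>Rheb replicate 2 and Lpp[TS]>w1118 replicate 1, and otherwise stay within a narrow range.

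The first comparison asked how insertion transcripts are spread over ribosome fractions relative to their total level, as the mean over the 3 lines. Counts were tested with edgeR's quasi-likelihood test and Benjamini-Hochberg adjustment over 13065 features, 427 of them members; the other 1104 were too low to test. A member that is high in 1 fraction passes that filter more easily, so the shares given here describe the 427 and support nothing further. In polysomes, 73 rose and 82 fell relative to total RNA, where 24.8% of all features were higher and 25.3% lower (50.1% called in all). In monosomes, 90 rose and 61 fell, where 23.5% of all features were higher and 26.4% lower (50% in all). The members called, 36.3% and 35.4% of those tested, were thus a smaller share than among all features. Tested members had a median summed count of only 184 over the 18 libraries, and its part in this share was not tested. Their median log2 change was 0.26 in polysomes and 0.37 in monosomes, against -0.04 and -0.05 over all features. The middle 50% of their changes was not narrower: -0.64 to 0.97 in polysomes and -0.33 to 0.96 in monosomes, against -0.54 to 0.44 and -0.57 to 0.40. Without replicate 1 of Lpp[TS]>w1118 the members called were 92 in polysomes and 100 in monosomes.

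Counts of calls were taken by class. Over all features, 24.8% were higher and 25.3% lower in polysomes, and 23.5% higher and 26.4% lower in monosomes. Of 189 LTR retrotransposons tested, 51 rose and 13 fell in polysomes (median 0.59), and 57 rose and 13 fell in monosomes (median 0.50). Of non-LTR retrotransposons in polysomes, 12 of 131 were higher and 13 lower (median 0.27), and in monosomes 22 rose and 10 fell (median 0.52). Among 52 INE-1 insertions 5 rose and 31 fell in polysomes (median -1.60), and 5 rose and 19 fell in monosomes (median -0.29). DNA transposons had 4 of 46 higher and 19 lower in polysomes (median -0.78), and 4 higher and 14 lower in monosomes (median -0.29). Of 7 foldback elements, 1 rose and 4 fell in polysomes. Differences between classes were not tested.

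Calls were also counted by position and by orientation relative to the host gene, with no test between these groups. The shares over all features were again 24.8% higher and 25.3% lower in polysomes, and 23.5% higher and 26.4% lower in monosomes. Of 113 tested insertions that lie in an intron in the orientation of the host gene, 13 rose and 46 fell in polysomes (median -0.36). Of 90 in the opposite orientation, 20 rose and 9 fell (median 0.53). Insertions between genes gave 26 higher and 17 lower of 181 (median 0.29), and those over exons 13 higher and 8 lower of 35 (median 0.44). In monosomes 16 were higher and 33 lower in the host orientation, and 26 higher and 8 lower in the opposite one. Insertions shorter than 1000 bp had a median of -0.58 in polysomes (8 higher and 44 lower of 118), and longer ones 0.45 (65 higher and 38 lower of 309). On the small chromosome 4, 3 of 57 tested insertions rose and 26 fell in polysomes, and 15 of 22 of its INE-1 pieces fell. Class, length, chromosome and position overlap in these insertions, and their parts were not separated.

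**Figure D3:**
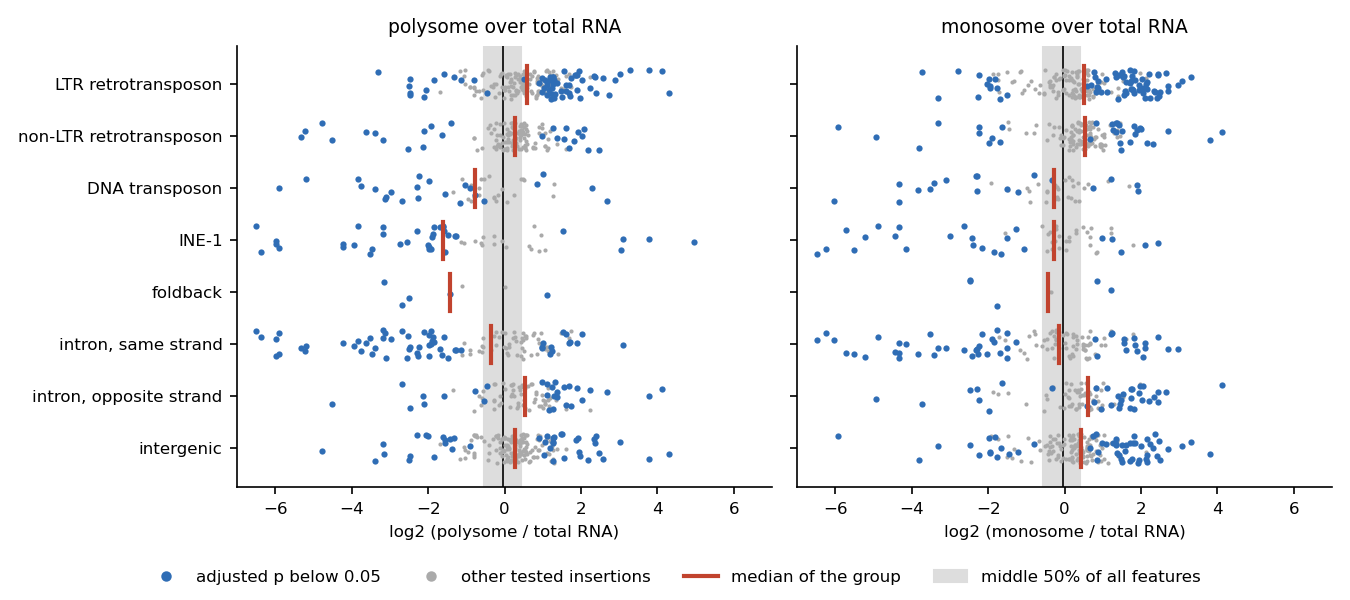
Log2 ratio of polysome (left) and monosome (right) to total RNA for each tested insertion, by element class and by position. Blue points passed an adjusted p of 0.05, red bars are medians, and the grey band with the black line gives the middle 50% and the median of all features; LTR retrotransposons lie right of the line, and INE-1 and same-strand intronic insertions reach far to its left.

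Among insertions with a mean count of at least 20 per library, the 5 strongest rises in each ribosome fraction relative to total RNA belonged to LTR retrotransposons of the copia, springer and 3S18 families, whose full-length copies encode proteins. The springer insertion in Sox100B, springer{}1464, lies opposite to that gene of the SoxE transcription factor group. It was at 11.1 to 17.5 CPM (median 12.7) in polysome and 6.74 to 20.4 CPM (median 12.3) in monosome libraries, against 3.17 to 4.28 CPM (median 3.66) in total RNA, with no overlap between either ribosome fraction and total RNA (polysome log2 change 1.68 ± 0.16 (SE), adjusted p = 2.53e-06; monosome 1.53 ± 0.16, adjusted p = 6.34e-06). Its host fell in polysomes (-0.73 ± 0.25, adjusted p = 0.0289), a call lost without replicate 2 of Lpp[TS]>Lsp2, replicate 2 of Lpp[TS]>Rheb or either replicate of Lpp[TS]>w1118 (log2 change -0.73 to -0.62, adjusted p = 0.0778 to 0.137). A second copy, springer{}97 over an exon of l(1)G0289, rose in polysomes by 1.83 ± 0.36 on the log2 scale (adjusted p = 0.000937). All 6 tested springer copies had a positive change in polysomes and 5 were called, where 24.8% of all features were higher. Copies of a family share sequence and are not independent, and springer{}645 had 141 of its 219 counts in 1 polysome library. The family as 1 feature was at 22.2 to 38.4 CPM (median 24.8) in polysome and 13.4 to 42.1 CPM (median 21.3) in monosome libraries, against 7.19 to 9.85 CPM (median 8.06) in total RNA (polysome log2 change 1.51 ± 0.17 (SE), adjusted p = 8.63e-06).

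The copia family rose in both fractions and was lower in polysomes than in monosomes (log2 change -1.01 ± 0.30 (SE), adjusted p = 0.0280). The difference between the ribosome fractions was lost without either replicate of Lpp[TS]>Lsp2 or of Lpp[TS]>w1118 (log2 change -1.05 to -0.96, adjusted p = 0.0532 to 0.194), and without replicate 2 of Lpp[TS]>Rheb (log2 change -0.61, adjusted p = 0.213). The rise in polysomes was lost without either replicate of Lpp[TS]>w1118 (log2 change 0.95 to 0.99, adjusted p = 0.0920 to 0.0982). Of its 27 tested copies, 26 were called higher in monosomes, with log2 changes of 0.89 to 2.97 over all 27 tested, and 12 in polysomes. Of all features, 23.5% were higher in monosomes and 24.8% in polysomes. The copies share sequence and are not independent. Summed over copies, copia was at 24.1 to 68.3 CPM (median 33.2) in polysome and 27.1 to 302 CPM (median 67.2) in monosome libraries, against 9.32 to 27.7 CPM (median 15.4) in total RNA (monosome log2 change 1.98 ± 0.31 (SE), adjusted p = 0.000170; polysome 0.97 ± 0.31, adjusted p = 0.0176). The single highest value, 302 CPM, came from the monosome library of Lpp[TS]>Rheb replicate 2. The most counted copy, copia{}399 in an intron of the cadherin gene CadN2 (2L:17819978-17825122, - strand), was at 2.64 to 7.76 CPM (median 3.38) in polysome and 2.86 to 48.6 CPM (median 8.24) in monosome libraries, against 0.401 to 2.51 CPM (median 1.14) in total RNA (monosome 2.97 ± 0.44, adjusted p = 0.000105). The same naming rule was met by 4 intergenic copies, which were copia{}466, copia{}1391 and copia{}837 in monosomes, at 2.50 ± 0.41, 2.48 ± 0.34 and 2.41 ± 0.33, and copia{}387 in polysomes, at 1.88 ± 0.51. The adjusted p-values of these 4 were 0.000218, 5.70e-05, 4.94e-05 and 0.00791. For copia{}387 the polysome value rested on few counts in total RNA, 0 to 16 a library, and was larger without replicate 2 of Lpp[TS]>w1118 (log2 change 3.43, adjusted p = 0.00515).

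The third LTR element, 3S18{}853, lies in an intron of GEFmeso (2R:18575853-18581982, + strand) opposite to this guanine nucleotide exchange factor gene. It was at 1.83 to 5.0 CPM (median 2.55) in polysome and 2.92 to 11.9 CPM (median 4.72) in monosome libraries, against 0.338 to 1.49 CPM (median 0.928) in total RNA, without overlap with total RNA in either fraction (monosome log2 change 2.43 ± 0.26 (SE), adjusted p = 6.90e-06; polysome 1.56 ± 0.25, adjusted p = 0.000215). Doc, a non-LTR retrotransposon, rose as a family in monosomes (0.93 ± 0.16, adjusted p = 0.000312) and in polysomes (0.50 ± 0.16, adjusted p = 0.0168; lost without replicate 2 of Lpp[TS]>Rheb or replicate 1 of Lpp[TS]>w1118, log2 change 0.42 to 0.45, adjusted p = 0.0638 to 0.106), and Doc{}CHKov1[Doc1420], which holds 37.7% of its counts, was at 14.4 to 38 CPM (median 20.9) in the monosome libraries, against 5.84 to 11.4 CPM (median 8.46) in total RNA. Its host CHKov1, whose transcript this insertion truncates in many fly strains, rose as well, by 1.43 ± 0.19, adjusted p = 4.10e-05 in monosomes. In contrast, roo, also an LTR family, was at 28.1 to 41.3 CPM (median 40.3) in polysome and 28.2 to 56.6 CPM (median 34.1) in monosome libraries, against 28.9 to 36 CPM (median 32.2) in total RNA, and passed no test in either fraction (polysome 0.04 ± 0.13, adjusted p = 0.822).

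**Figure D4:**
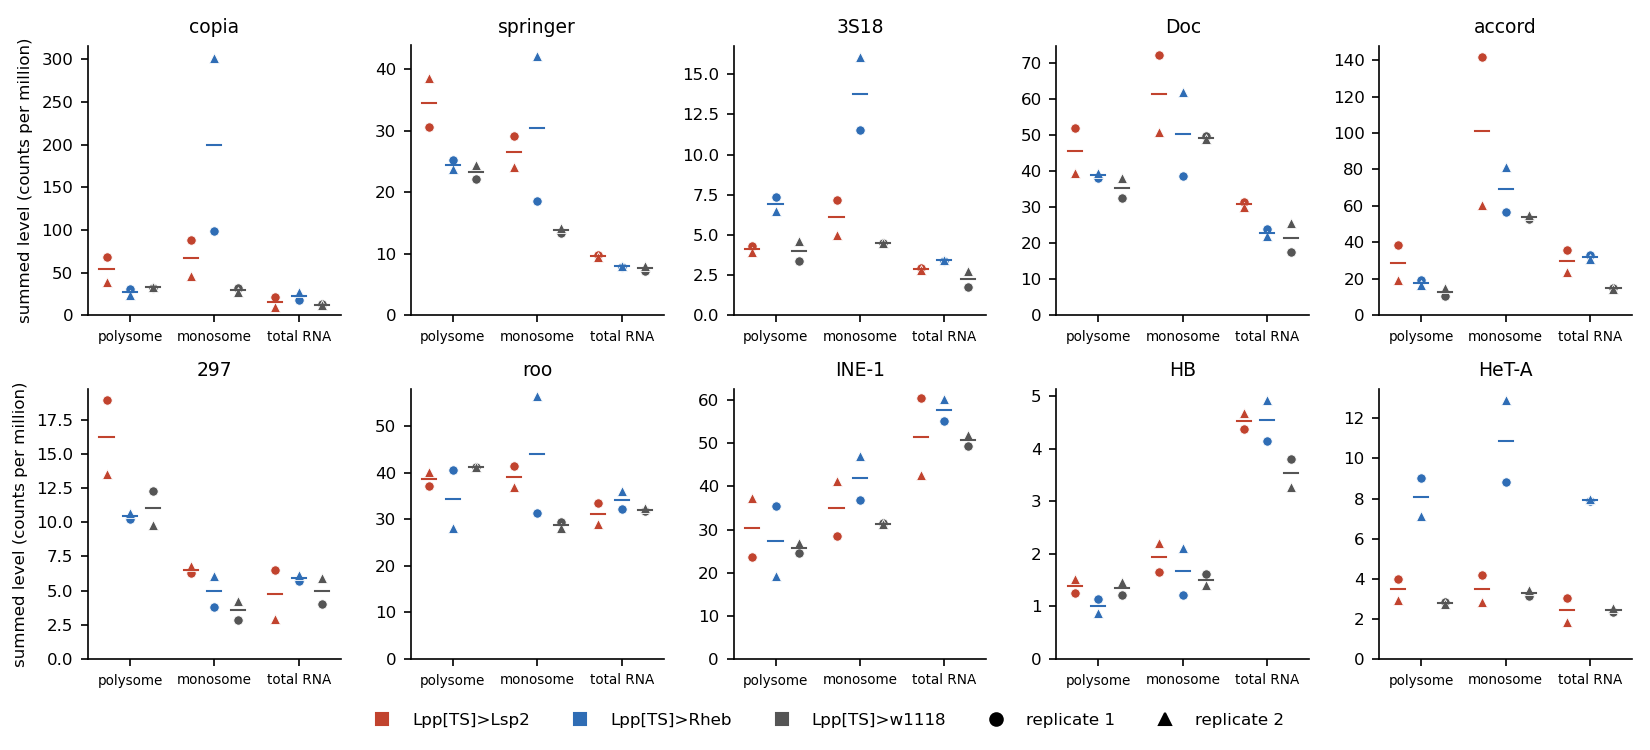
Summed level (CPM, vertical axes from 0) of 10 element families in every library, by fraction, with colours for lines, symbols for replicates and bars for means of 2. The copia, 3S18, Doc and accord panels are highest in monosomes, springer is high in both ribosome fractions, 297 is highest in polysomes, INE-1 and HB are high in total RNA, and HeT-A separates the Lpp[TS]>Rheb libraries from the other lines in every fraction.

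With the same minimum of counts, the 5 largest falls in polysomes were intronic insertions in the orientation of the host gene, in introns of genes that also fell. INE-1{}3385, a 541 bp piece in an intron of CaMKII on chromosome 4 (4:1042174-1042714, - strand), was at 0 to 0.195 CPM (median 0.0734) in polysome and 0 to 0.253 CPM (median 0.0569) in monosome libraries, against 2.81 to 6.35 CPM (median 4.54) in total RNA. Behind these levels stood 15 counts over the 6 polysome libraries and 11 over the 6 monosome libraries, against 683 over the 6 total RNA libraries. The changes were -5.92 ± 0.52, adjusted p = 1.53e-06 in polysomes and -5.74 ± 0.55, adjusted p = 2.96e-06 in monosomes. CaMKII, which encodes a calcium-dependent protein kinase of synapses, also fell in polysomes, but by less (-1.09 ± 0.09, adjusted p = 1.25e-06).

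The other 4 were of several classes. INE-1{}2087, in an intron of gus, had a polysome change of -3.46 ± 0.58, adjusted p = 0.000271, and gus itself -0.95 ± 0.12, adjusted p = 2.59e-05. Transpac{}362, a 5249 bp LTR element in B4, was at 0.208 to 1.32 CPM (median 0.762) in polysome and 0.402 to 1.4 CPM (median 0.858) in monosome libraries, against 1.34 to 4.73 CPM (median 3.73) in total RNA (polysome -2.48 ± 0.35, adjusted p = 6.18e-05), while B4 was at -0.57 ± 0.09, adjusted p = 0.000179. FB{}5382, a foldback element of 625 bp in CG33941 on chromosome 4, had a polysome change of -2.50 ± 0.22, adjusted p = 1.26e-06, close to that of its host at -2.12 ± 0.16, adjusted p = 4.34e-07. The 6752 bp rooA{}1496 in Syt7, a synaptotagmin gene on chromosome 4, gave -2.11 ± 0.20, adjusted p = 2.42e-06, with Syt7 at -1.45 ± 0.18, adjusted p = 2.08e-05. One intergenic insertion was also among the 5 largest falls in monosomes with that minimum: Quasimodo{}3987, at 0.125 to 0.568 CPM (median 0.507) in the monosome libraries, against 1.21 to 2.06 CPM (median 1.44) in total RNA (-1.96 ± 0.34, adjusted p = 0.000383).

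Over all 183 tested intronic insertions whose single host gene was tested too, in 155 genes, the polysome change of the insertion was below that of the host in 68. This was the case for 53 of 107 in the host orientation and 15 of 76 in the opposite one. By class it was 25 of 37 for INE-1 and 16 of 20 for DNA transposons, and 14 of 78 for LTR and 11 of 44 for non-LTR retrotransposons. The median change of the INE-1 pieces was -1.84 and of their hosts -0.99, and of the LTR pieces 0.84 with hosts at -0.42. Several pieces share a host gene, so they are not independent.

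By family, the rule that more than 50% of the tested copies were called in 1 direction (families of at least 3 members) was met in polysomes by 6 families that rose and 12 that fell, 8 of them with a single tested copy. Among all features, with copies kept single, 24.8% were called higher and 25.3% lower in polysomes. Those that rose were springer, Stalker2 (5 of 7 copies), 297 (3 of 5), HMS-Beagle2 (2 of 2), 1731 and invader6. Those that fell included INE-1, HB (5 of 5), H (3 of 5), rooA (3 of 5) and S (2 of 2); Y met it too, with 2 of 2, as did Fw2, Juan, Tirant, invader2, jockey2 and micropia with 1 each. In monosomes 7 families rose by this rule: copia, springer, gypsy8 and gypsy10 (3 of 3 each), Rt1c (2 of 3), 1731 and ninja-Dsim-like. There 10 fell: HB (4 of 5), H (4 of 5), Quasimodo and Y (2 of 2 each), Fw2, Juan, Tirant, invader2, jockey2 and micropia. A single tested copy stood behind 2 of the families that rose in monosomes and 6 that fell, where 23.5% of all features were higher and 26.4% lower. With the copies of each family summed to 1 feature, a fit added after the first results were seen, 39 of 99 families were called in polysomes (18 higher) and 31 in monosomes (19 higher). The background in these fits was 50.4% of all features in polysomes and 50.2% in monosomes. HB, a short DNA transposon of the Tc1 group, fell too, at 0.875 to 1.51 CPM (median 1.23) in polysome and 1.22 to 2.21 CPM (median 1.64) in monosome libraries, against 3.26 to 4.93 CPM (median 4.26) in total RNA (polysome -1.94 ± 0.17, adjusted p = 1.46e-06). INE-1 as a family was at 19.3 to 37.2 CPM (median 25.7) in polysome and 28.5 to 47.1 CPM (median 34.1) in monosome libraries, against 42.6 to 60.5 CPM (median 53.6) in total RNA (polysome -1.13 ± 0.14, adjusted p = 2.41e-05).

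Set directly against monosomes, polysomes held less of most insertions: 156 of 427 had a positive change. Of the 427, 20 were higher and 46 lower in polysomes, where 13.5% of all features were higher and 10.5% lower (23.9% in all), and the median was -0.22, against -0.01 over all features. The count rested on single replicates: it was 22 or 30 without a replicate of Lpp[TS]>Rheb, and 9 or 13 without replicate 1 or 2 of Lpp[TS]>w1118. The most counted insertion, accord{}818, was at 10.4 to 38.5 CPM (median 18) in polysome libraries, against 52.6 to 141 CPM (median 58.6) in monosome libraries, with no overlap (log2 change -1.94 ± 0.25 (SE), adjusted p = 0.000216). It exceeded total RNA in monosomes only (monosome 1.39 ± 0.24, adjusted p = 0.000369; polysome -0.56 ± 0.24, adjusted p = 0.0732). The other named falls were INE-1{}4071 in ND-MLRQ (-1.56 ± 0.28, adjusted p = 0.00194), INE-1{}2086 in gus (-1.52 ± 0.27, adjusted p = 0.00185), copia{}1684 (-1.32 ± 0.33, adjusted p = 0.0109) and gypsy12{}3705 (-1.31 ± 0.17, adjusted p = 0.000221). The call for INE-1{}4071 was lost without replicate 1 of Lpp[TS]>w1118 (log2 change -1.41, adjusted p = 0.0594), and that for copia{}1684 without replicate 2 of Lpp[TS]>Rheb or either replicate of Lpp[TS]>w1118 (log2 change -1.47 to -1.05, adjusted p = 0.0665 to 0.133). ND-MLRQ, a subunit gene of respiratory complex I, rose in polysomes relative to total RNA by 1.21 ± 0.17, adjusted p = 7.58e-05.

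The named rises in polysomes over monosomes were LTR retrotransposons. The 416 bp fragment invader1{}757 was at 0.542 to 2.37 CPM (median 1.7) in polysome libraries, against 0.0635 to 1.14 CPM (median 0.467) in monosome libraries (1.98 ± 0.37, adjusted p = 0.00241), with overlap between the fractions. Stalker2{}106 was at 1.83 to 6.96 CPM (median 4.06) in polysome libraries, against 0.749 to 3.33 CPM (median 1.62) in monosome libraries (1.28 ± 0.31, adjusted p = 0.0109), and mdg3{}144, in an intron of the sodium channel gene para, changed by 1.62 ± 0.48, adjusted p = 0.0272. The call for mdg3{}144 was lost without either replicate of Lpp[TS]>w1118 (log2 change 1.61 to 1.65, adjusted p = 0.155 to 0.158) and without replicate 1 of Lpp[TS]>Rheb (log2 change 0.76, adjusted p = 0.253). That for Stalker2{}106 was lost without either replicate of Lpp[TS]>w1118 (log2 change 1.22 to 1.38, adjusted p = 0.0688 to 0.106) and without replicate 1 of Lpp[TS]>Rheb (adjusted p = 0.0861), and the adjusted p of invader1{}757 came to 0.05 without replicate 2 of Lpp[TS]>w1118 (log2 change 1.79). Of 5 tested 297 copies, 3 were called, and the family was at 9.79 to 18.9 CPM (median 11.5) in polysome libraries, against 2.87 to 6.77 CPM (median 5.17) in monosome libraries without overlap (log2 change 1.35 ± 0.22 (SE), adjusted p = 0.000891). It was higher in polysomes than in total RNA (1.08 ± 0.21, adjusted p = 0.000883) and passed no test in monosomes (-0.28 ± 0.22, adjusted p = 0.312). As families, 3 of 99 were higher and 15 lower (24.2% of all features called), and only invader1 and invader6 joined 297 among the higher ones. Both of these lost the call without 1 of 4 replicates, among them replicate 1 of Lpp[TS]>Rheb (invader1 log2 change 0.61, adjusted p = 0.164; invader6 log2 change 0.69, adjusted p = 0.438). 297, Rt1c (2 of 3 copies lower) and gypsy10 (2 of 3 lower) met the 50% rule with more than 1 tested copy, and invader6, GATE and jockey2 with 1. With copies kept single, 13.5% of all features were higher in polysomes than in monosomes and 10.5% lower.

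The second comparison asked whether the lines differ in total RNA. Few single insertions were called, with 2 libraries a line, which does not show that the others were alike. Which of the reference copies each line carries was not tested. In any fraction, a difference between lines in copies carried and one in RNA per copy therefore cannot be told apart. Of 250 tested members, none was called in Lpp[TS]>Lsp2 against Lpp[TS]>w1118, where 0.0166% of all features were; 2 members had an unadjusted p below 0.05 in edgeR, and DESeq2 called 0. In Lpp[TS]>Rheb against Lpp[TS]>w1118, 1 member was called, lower (1.53% of all features), and in Lpp[TS]>Rheb against Lpp[TS]>Lsp2 the same one (0.815%). DESeq2 called 7 and 4 in these comparisons. Fitting only the groups compared gave 23 and 2, and leaving out replicate 1 or 2 of Lpp[TS]>Lsp2, the line with the widest spread, gave 22 or 19 and 27 or 11. Without any 1 replicate of Lpp[TS]>Rheb or Lpp[TS]>w1118 none was called. The last 2 comparisons share the Lpp[TS]>Rheb libraries. The median log2 change of the 250 was 0.23 in Lpp[TS]>Lsp2 and 0.29 in Lpp[TS]>Rheb against Lpp[TS]>w1118. It was 0.01 between the driven lines. Over all features the medians were 0.08, -0.04 and -0.07. These shifts were not tested.

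The insertion that differed was gypsy12{}3705 (FBti0061766), a 1978 bp LTR element over an exon of d4 on the same strand (2R:5262940-5264917, + strand). In total RNA it was at 4.99 and 3.34 CPM in Lpp[TS]>Lsp2 and 0.298 and 0.283 CPM in Lpp[TS]>Rheb, against 3.28 and 3.79 CPM in Lpp[TS]>w1118, so the Lpp[TS]>Rheb libraries lay far below all others. The change relative to Lpp[TS]>w1118 was -3.53 ± 0.41 on the log2 scale (adjusted p = 0.0220), and relative to Lpp[TS]>Lsp2 -3.71 ± 0.41, adjusted p = 0.0269. Monosomes gave 9.21 and 11.3 CPM in Lpp[TS]>Lsp2 and 0.659 and 0.731 CPM in Lpp[TS]>Rheb, against 5.87 and 5.65 CPM in Lpp[TS]>w1118 (against Lpp[TS]>w1118 -3.01 ± 0.28, adjusted p = 0.00529). Polysomes gave 3.58 and 4.83 CPM in Lpp[TS]>Lsp2 and 0.228 and 0.333 CPM in Lpp[TS]>Rheb, against 2.14 and 2.37 CPM in Lpp[TS]>w1118 (-2.86 ± 0.38, adjusted p = 0.0278). Without any 1 replicate of Lpp[TS]>Rheb or Lpp[TS]>w1118 the adjusted p in total RNA was 0.279 to 0.306 (log2 changes -3.63 to -3.44). The gene d4, which encodes a PHD finger protein, did not pass the test in Lpp[TS]>Rheb against Lpp[TS]>w1118, with 146 and 168 CPM in Lpp[TS]>Rheb, against 197 and 189 CPM in Lpp[TS]>w1118 (-0.25 ± 0.15, adjusted p = 0.517). Without replicate 2 of Lpp[TS]>Rheb or replicate 1 of Lpp[TS]>w1118, d4 gave a log2 change of -0.32 to -0.22, adjusted p = 0.964 to 0.998.

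Within the ribosome fractions, insertions were called in Lpp[TS]>Rheb at shares near or below those of all features. In monosomes, 3 of 218 tested members (1.38%) were called against Lpp[TS]>w1118 (2.24% of all features) and 2 (0.917%) against Lpp[TS]>Lsp2 (0.798%). In polysomes, 3 of 316 (0.949%) were called against Lpp[TS]>w1118 (1.68%) and 1 (0.316%) against Lpp[TS]>Lsp2 (0.357%). None was called in Lpp[TS]>Lsp2 against Lpp[TS]>w1118, in monosomes (0.0351% of all features; 13 members at an unadjusted p below 0.05; DESeq2 called 0) or in polysomes (0.0166%; 16 members; DESeq2 called 1). All these calls against Lpp[TS]>w1118 were lost without 1 replicate of either line.

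The intergenic mdg3{}291 (2L:1801273-1806792, - strand), a full LTR retrotransposon, was close to 0 in the ribosome fractions of Lpp[TS]>Rheb. Its counts in monosomes were 1 and 0 in Lpp[TS]>Rheb, against 30 and 23 in Lpp[TS]>w1118, and in polysomes 1 and 1 in Lpp[TS]>Rheb, against 34 and 46 in Lpp[TS]>w1118. The ratio of levels was 0.0179 in monosomes (95% exact interval 0.000444 to 0.104, for counting error only; edgeR adjusted p = 0.0237) and 0.0250 in polysomes (0.00298 to 0.0934; edgeR adjusted p = 0.0227). In total RNA its levels were low in all lines, with 0.288 and 0.580 CPM in Lpp[TS]>Lsp2 and 0.0894 and 0.202 CPM in Lpp[TS]>Rheb, against 0.386 and 0.576 CPM in Lpp[TS]>w1118. There the ratio of Lpp[TS]>Rheb was less extreme, 0.285 to Lpp[TS]>w1118 (0.109 to 0.676) and 0.335 to Lpp[TS]>Lsp2 (0.129 to 0.781), with the same kind of interval.

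Another 2 insertions were higher. In monosomes 3S18{}853 was at 5.58 and 3.86 CPM in Lpp[TS]>Lsp2 and 8.8 and 11.9 CPM in Lpp[TS]>Rheb, against 3.18 and 2.92 CPM in Lpp[TS]>w1118, with every Lpp[TS]>Rheb value above the others (Lpp[TS]>Rheb against Lpp[TS]>w1118 log2 change 1.81 ± 0.32 (SE), adjusted p = 0.0397). In polysomes INE-1{}3410, a 488 bp piece on chromosome 4 in introns of both Zyx and apolpp, was at 1.25 and 1.31 CPM in Lpp[TS]>Lsp2 and 2.44 and 2.46 CPM in Lpp[TS]>Rheb, against 0.576 and 0.513 CPM in Lpp[TS]>w1118, again without overlap (2.29 ± 0.35, adjusted p = 0.0396). The gene apolpp, which encodes the fat body lipoprotein also called Lpp, was at 420 and 409 CPM in polysomes of Lpp[TS]>Rheb, against 287 and 272 CPM in Lpp[TS]>w1118 (log2 change 0.70 ± 0.16, adjusted p = 0.117), and Zyx gave -0.13 ± 0.10, adjusted p = 0.745.

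**Figure D5:**
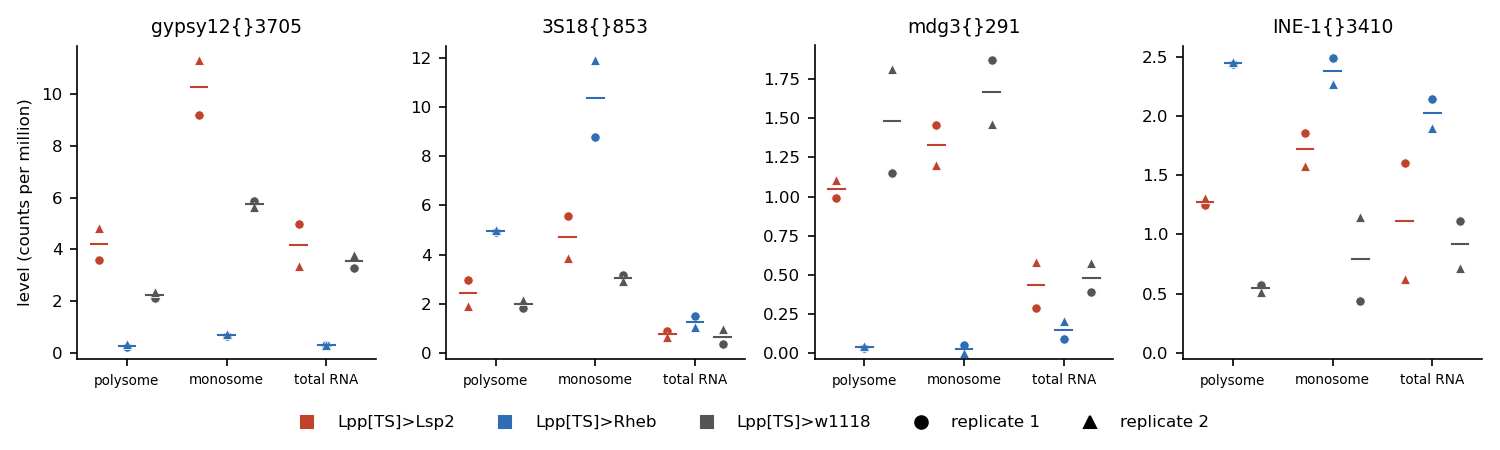
Level (CPM, linear axes) of the 4 insertions called between Lpp[TS]>Rheb and Lpp[TS]>w1118 in at least 1 fraction. Each point is a library, with colours for lines, symbols for replicates and bars for means of 2. In each fraction Lpp[TS]>Rheb is lowest for gypsy12{}3705 and mdg3{}291 and highest for 3S18{}853 and INE-1{}3410.

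With copies summed by family, the telomeric retrotransposon HeT-A stood out in Lpp[TS]>Rheb. HeT-A, together with related elements, maintains fly chromosome ends in place of telomerase. In total RNA it was at 3.04 and 1.83 CPM in Lpp[TS]>Lsp2 and 7.87 and 7.97 CPM in Lpp[TS]>Rheb, against 2.36 and 2.54 CPM in Lpp[TS]>w1118. Monosomes gave 4.18 and 2.85 CPM in Lpp[TS]>Lsp2 and 8.85 and 12.9 CPM in Lpp[TS]>Rheb, against 3.12 and 3.43 CPM in Lpp[TS]>w1118, and polysomes 3.99 and 2.94 CPM in Lpp[TS]>Lsp2 and 9.01 and 7.12 CPM in Lpp[TS]>Rheb, against 2.85 and 2.72 CPM in Lpp[TS]>w1118. The Lpp[TS]>Rheb libraries were above all others in each fraction. Against Lpp[TS]>w1118 the log2 change was 1.74 ± 0.33 in total RNA, which missed the threshold (adjusted p = 0.0825), 1.78 ± 0.33, adjusted p = 0.0470 in monosomes and 1.66 ± 0.27, adjusted p = 0.0473 in polysomes. Both calls were lost without 1 replicate of either line, with an adjusted p of 0.197 to 0.413 (log2 changes 1.46 to 2.05) in monosomes, and of 0.153 to 0.415 (log2 changes 1.58 to 1.74) in polysomes. In total RNA HeT-A gave a log2 change of 1.69 to 1.76, adjusted p = 0.538 to 0.679 without replicate 2 of Lpp[TS]>Rheb or replicate 1 of Lpp[TS]>w1118, while it passed the test without either replicate of Lpp[TS]>Lsp2 (log2 change 1.77, adjusted p = 3.85e-05 to 0.000306). Of 16 HeT-A copies, 5 were tested in total RNA, and none was called alone. Copies that are high in 1 line pass the count filter more easily, so the direction of the 5 says nothing further. The highest of them in Lpp[TS]>Rheb was HeT-A{}5504 (2.98 and 2.26 CPM in Lpp[TS]>Rheb, against 0.241 and 0.240 CPM in Lpp[TS]>w1118; 3.48 ± 0.57, adjusted p = 0.0566). The family was named after its values were seen.

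Across families, 0 of 82 were called in total RNA of Lpp[TS]>Rheb against Lpp[TS]>w1118 (1.53% of all features; 11 families at an unadjusted p below 0.05 in edgeR; DESeq2 called 3), 2 of 79 in monosomes (2.23%) and 1 of 91 in polysomes (1.67%). Without replicate 1 or 2 of Lpp[TS]>Lsp2, 12 families were called in total RNA and 11 in monosomes. The second family in monosomes was 3S18, with 11.5 and 16.1 CPM in Lpp[TS]>Rheb, against 4.49 and 4.51 CPM in Lpp[TS]>w1118 (1.66 ± 0.30, adjusted p = 0.0444), lost without any 1 replicate of either line (log2 change 1.39 to 1.91, adjusted p = 0.197 to 0.406). HMS-Beagle, an LTR family, missed the threshold in total RNA, at 4.83 and 6.71 CPM in Lpp[TS]>Rheb, against 1.74 and 2.06 CPM in Lpp[TS]>w1118 (1.65 ± 0.31, adjusted p = 0.0786). It gave a log2 change of 1.43 to 1.53, adjusted p = 0.665 to 0.697 without replicate 2 of Lpp[TS]>Rheb or replicate 1 of Lpp[TS]>w1118, and passed without either replicate of Lpp[TS]>Lsp2 (log2 change 1.67 to 1.68, adjusted p = 0.000315 to 0.00160). The copia family missed it in monosomes, at 88.6 and 45.8 CPM in Lpp[TS]>Lsp2 and 98.8 and 302 CPM in Lpp[TS]>Rheb, against 32.6 and 27.1 CPM in Lpp[TS]>w1118 (2.80 ± 0.60, adjusted p = 0.0891), where both Lpp[TS]>Rheb libraries lay above the others but far from each other. The accord insertion, accord{}818, was higher in total RNA of both driven lines, at 36.1 and 23.7 CPM in Lpp[TS]>Lsp2 and 33.2 and 31.1 CPM in Lpp[TS]>Rheb, against 15.1 and 14.7 CPM in Lpp[TS]>w1118, without overlap and without passing the test (Lpp[TS]>Lsp2 0.95 ± 0.23, adjusted p = 0.833; Lpp[TS]>Rheb 1.16 ± 0.23, adjusted p = 0.0898). Without replicate 2 of Lpp[TS]>Rheb or replicate 1 of Lpp[TS]>w1118 the accord difference was a log2 change of 1.18 to 1.24, adjusted p = 0.436 to 0.644 in Lpp[TS]>Rheb and 0.94 to 0.97, with an adjusted p of at least 0.991, in Lpp[TS]>Lsp2. Without either replicate of Lpp[TS]>Lsp2 it passed in both (Lpp[TS]>Rheb log2 change 1.19 to 1.20, adjusted p = 2.98e-06 to 2.64e-05; Lpp[TS]>Lsp2 log2 change 0.58 to 1.26, adjusted p = 0.000456 to 0.00549), where the spread of the lone Lpp[TS]>Lsp2 library is taken from the other lines.

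The third comparison asked whether the polysome to total RNA ratio of an insertion depends on the line, as an interaction term in a joint fit. Of 387 tested members, none was called for Lpp[TS]>Lsp2 or for Lpp[TS]>Rheb against Lpp[TS]>w1118, and neither was any other of the 12796 features (0.0%). In edgeR, 9 and 8 members had an unadjusted p below 0.05, and DESeq2 called 0 in both. For springer{}1464, the change of the ratio was 0.33 ± 0.25 in Lpp[TS]>Lsp2 and 0.07 ± 0.25 in Lpp[TS]>Rheb. For accord{}818 it was 0.36 ± 0.48 and -0.50 ± 0.49. Of 25 tested copia copies, 18 were above 0 in Lpp[TS]>Lsp2 (median 0.56, against 0.01 over all features), and 23 were below 0 in Lpp[TS]>Rheb (median -1.29, against 0.04 over all features). None of them was called, the copies share sequence and are not independent, and standard errors were wide, 0.94 to 0.96 for copia{}399.

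Of 41 listed genes of the piRNA and small interfering RNA pathways, 39 were in the table and 38 were tested. In total RNA of Lpp[TS]>Rheb against Lpp[TS]>w1118, 1 rose and 1 fell. The gene moon, whose product starts transcription at piRNA source loci in the germline, was at 17.2 and 19.8 CPM in Lpp[TS]>Rheb, against 7.96 and 9.99 CPM in Lpp[TS]>w1118 (log2 change 1.10 ± 0.17 (SE), adjusted p = 0.0451). The gene rhi, whose product marks the same loci in chromatin, was at 37.3 and 33.6 CPM in Lpp[TS]>Rheb, against 66.3 and 67.9 CPM in Lpp[TS]>w1118 (-0.87 ± 0.13, adjusted p = 0.0471). Monosomes repeated both calls (moon 1.54 ± 0.20, adjusted p = 0.0134; rhi -0.79 ± 0.13, adjusted p = 0.0327) and polysomes the first (1.65 ± 0.17, adjusted p = 0.0151). These calls were lost without any 1 replicate of Lpp[TS]>Rheb or Lpp[TS]>w1118; in total RNA, without replicate 2 of Lpp[TS]>Rheb or replicate 1 of Lpp[TS]>w1118, moon gave a log2 change of 0.94 to 1.02, adjusted p = 0.414 to 0.495 and rhi a log2 change of -0.88 to -0.77, adjusted p = 0.474 to 0.495. None of the 38 was called in Lpp[TS]>Lsp2 against Lpp[TS]>w1118 in any fraction by edgeR, where moon was at 17.9 and 17.1 CPM in total RNA of Lpp[TS]>Lsp2. Relative to total RNA, 4 of the 38 rose and 19 fell in polysomes (median -0.21, against -0.04 over all features), where 24.8% of all features were higher and 25.3% lower. In monosomes 8 rose and 12 fell (median -0.09, against -0.05 over all features), where 23.5% of all features were higher and 26.4% lower. Among the 4 that rose in polysomes were daed, cuff and Nxt1, and AGO3, Hen1 and AGO2 led the falls by p. The summed level of 11 measured ovarian germline markers in total RNA was 1915 and 2874 CPM in Lpp[TS]>Lsp2 and 1702 and 1898 CPM in Lpp[TS]>Rheb, against 2161 and 2101 CPM in Lpp[TS]>w1118. Its part in these values was not tested.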

How the data were processed

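Whole females of the 3 Lpp[TS] lines were, per the labels' protocols, ground in liquid nitrogen; total RNA came from part of the powder, and a lysate of what remained was separated on a sucrose gradient into monosome and polysome fractions. Poly(A) RNA was sequenced with paired ends. The authors deposited a table of raw read counts per feature, genes and single insertions together. Their processing notes, with no role or order given, list fastp 0.23.2, Bowtie2 2.3.4.1, STAR 2.2.1, featureCounts 1.6.0 and R 4.2.0 with build BDGP6, per the submitters' processing notes. Names, positions and host genes came from an Ensembl annotation of that assembly; settings for reads with several matches and for strand are not given in the sources used here.

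Counts of all 23932 features were fitted with edgeR 4.0.16 (R 4.3.3, limma 3.58.1): TMM scaling, filterByExpr, robust quasi-likelihood test, Benjamini-Hochberg adjustment over all features tested, threshold 0.05. Fits of fractions used all 18 libraries, and those of lines the 6 of a fraction. The scripts were tested on simulated data. Shares of counts were compared with exact permutation tests (scipy 1.17.1). Alternatives were DESeq2 1.42.0, other scaling, no filter, a replicate block, only the groups compared and leaving out each replicate. Library totals set the precision, and intervals and floors cover counting error only. Nothing in the labels says that replicates were separate cultures or crosses, so p-values measure the spread between these samples. A batch that followed line or fraction could not be told apart from them.

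The text names the 10 most counted insertions, up to 8 called per direction in total RNA, up to 5 per direction in each comparison of fractions (mean count at least 20), and families by counts or by the share of copies called, with their host genes. The low insertions in 2 libraries, HeT-A and insertions called within a ribosome fraction were chosen after their values were seen. Members and lists were chosen with earlier results of these data known.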

Additional observations from a re-analysis of the deposited data

Results flagged for a closer look

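The table of the Lpp[TS] lines also lists 162 insertions whose identifiers begin with RR and which the choice of members left out. Of these, 151 had at least 1 count, and their counts summed to 21033 over the 18 libraries. They entered the fits as features and are not described further.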

How the results depend on the processing

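Of results for single named insertions, 596 kept their side of the threshold and 125 lost it in an alternative; for families these were 654 and 163, and none reversed. The polysome over total RNA share (log2 0.22) passed the threshold of the exact permutation test among insertions of at least 100 counts (0.28), without the most counted insertion (0.25) and without replicate 2 of Lpp[TS]>Rheb, and was 0.16 to 0.28 without 1 replicate. The other shares without 1 replicate were 0.06 to 0.43 (Lpp[TS]>Lsp2) and 0.10 to 0.42 (Lpp[TS]>Rheb) against Lpp[TS]>w1118, and 0.47 to 0.76 for monosomes over total RNA.

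Insertions called in Lpp[TS]>Rheb against Lpp[TS]>w1118 in total RNA (1) became 4 with no filter on low counts, 7 with DESeq2, 0 with the replicate block, 23 with only the groups compared and 0 to 22 without 1 replicate. In monosomes (3) they became 19, 25, 1, 34 and 0 to 34 in the same order, and in polysomes (3) 13, 14, 0, 12 and 0 to 12. Against Lpp[TS]>Lsp2 in total RNA (1) they became 2, 4, 0, 2 and 0 to 27, in monosomes (2) 10, 6, 1, 1 and 0 to 17, and in polysomes (1) 6, 7, 0, 0 and 0 to 9. Other scaling gave 1 in monosomes against Lpp[TS]>Lsp2. For Lpp[TS]>Lsp2 against Lpp[TS]>w1118, leaving out 1 replicate gave 0 to 6 in total RNA, 0 to 9 in monosomes and 0 to 1 in polysomes, where DESeq2 gave 1. Ratio changes gave 0 to 1 for Lpp[TS]>Lsp2 and 0 in every case for Lpp[TS]>Rheb. Between fractions the counts without 1 replicate were 92 to 174 (polysome, 155), 100 to 161 (monosome, 151) and 9 to 72 (polysome against monosome, 66), and families called 20 to 39 (39), 22 to 35 (31) and 6 to 18 (18). Families called in Lpp[TS]>Rheb against Lpp[TS]>w1118 became 3 with DESeq2 and 0 to 12 without 1 replicate in total RNA (0), 6 with DESeq2, 0 with the block and 0 to 11 in monosomes (2), and 0 with the block and 0 to 1 in polysomes (1). Fewer samples and fewer features tested are part of leaving out replicates; otherwise the cause was not tested.

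Samples with the same replicate number correlated at -0.457 to 0.0162 between lines and at -0.00503 to 0.777 between fractions of a line. Between fractions, Lpp[TS]>Lsp2 gave 0.734 to 0.777, and only monosome against polysome of Lpp[TS]>Rheb was below 0.1. The remaining values between fractions were 0.169 to 0.190. The labels do not say that libraries of a line with the same number share flies, and not every correlation was over 0.1, so the block was kept as an alternative. With the replicate block 178, 155 and 86 insertions were called in the 3 comparisons of fractions, and 44, 38 and 22 families. Low depth limits the rest: 1104 of 1531 insertions could not be tested between fractions.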

Other observations

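Among springer copies, springer{}645 in an intron of sxc had 219 counts in all, of which 141 lay in 1 library, Lpp[TS]>Lsp2 polysome replicate 2. Polysomes gave 0.0958 and 5.77 CPM in Lpp[TS]>Lsp2 and 0.260 and 0 CPM in Lpp[TS]>Rheb, against 0.170 and 0.0395 CPM in Lpp[TS]>w1118. Total RNA held 0.0640 and 0 CPM in Lpp[TS]>Lsp2. It was named as one of the most counted springer copies, and its single high library was noticed after its values were seen.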
